A study of Mus musculus with 6 samples.

Results

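The genes described here encode the subunits of the mitochondrial respiratory chain and ATP synthase that are made from nuclear DNA. Members were the protein-coding genes whose symbol names a subunit of complexes I to V (symbols starting with Ndufa, Ndufb, Ndufc, Ndufs, Ndufv, Uqcr, Cox4i, Cox5, Cox6, Cox7, Cox8 or Atp5, with Sdha to Sdhd and Cyc1, and without the Ndufaf assembly factors) and that had a normalized count of 10 or more in at least 3 of the 6 libraries. Of 24454 gene IDs in the expression table, 86 were such protein-coding genes and 81 of these passed the level rule. They comprised 35 genes of complex I, 4 of complex II, 9 of complex III, 16 of complex IV and 17 of complex V. Ndufa4, which carries a complex I symbol but belongs with cytochrome c oxidase, was counted in complex IV, as was Cox7a2l. The 5 genes that did not pass were Ndufs5, Cox7b2 and Cox8c, listed at 0 in all 6 libraries, and Cox8b and Ndufa4l2, whose highest values were 5.41 and 3.27 normalized counts. Ndufb1, Ndufb4b and Ndufb4c were not analysed here.

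The study measured RNA of mouse acute myeloid leukaemia cells that did or did not carry an inducible transgene for STAT3β, a splice form of the transcription factor STAT3 that lacks its C-terminal transactivation domain. Fetal liver cells of C57BL/6 background, from wild-type littermates (WT, 3 libraries) or from Mx1-Cre and Stat3β transgenic animals (Stat3β TG, 3 libraries), were transformed with a retrovirus encoding the MLL-AF9 fusion and transplanted into NSG mice. Recipients of both groups received poly(I:C) at week 4, which induces Cre from the interferon-responsive Mx1 promoter, and leukaemic blasts were sorted from bone marrow at week 6. NSG hosts lack mature T, B and NK cells, and the Mx1 promoter is not restricted to blood cells. The labels do not say that replicates came from separate donors, so the p-values measure the spread between these libraries, which may in part be technical.

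Electrons from NADH enter the chain at complex I and those from succinate at complex II. Ubiquinone carries them to complex III and cytochrome c to complex IV, which reduces oxygen. The proton gradient built by complexes I, III and IV drives ATP synthase, often called complex V, whose F1 head makes ATP while its Fo part turns in the membrane. A few subunits of complexes I, III, IV and V are encoded in mitochondrial DNA and are not among the members. Myeloid leukaemia cells are known for their reliance on oxidative phosphorylation, and a fraction of STAT3 has been described in mitochondria.

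Promoters of these genes are known for sites of NRF1, of the ETS factor GABP, of YY1 and of oestrogen-related receptors. RefSeq promoters (GRCm38.p6, from 250 bases before to 50 bases after each start site) were matched for 66 of the 81 members. The NRF1 core GCGCATGC, read on both strands, was found in promoters of 10 members (15.2%), against 5.97% of 10108 tested genes with a promoter and 2.71% of all 32851 promoters. The ETS core CCGGAAG was found in 17 members (25.8%), against 20.3% of tested genes and 8.86% of all promoters. The YY1 core AAGATGGCG was found in 7 members (10.6%), against 3.60% of tested genes and 1.40% of all promoters. The oestrogen-related receptor site TCAAGGTCA was found in 2 members, Sdhd and Atp5g3 (3.03%), against 0.346% and 0.423%. The TATA box letters TATAAA were found in 6 members (9.09%), against 8.90% of tested genes and 13.6% of all promoters. A match of letters is a description and not a measured binding site. For each complex, 1 promoter of a gene described below is printed 5′ to 3′ along the gene, with matches to the first 4 of these motifs in capitals. The Ndufa9 promoter holds the YY1 letters close to its start, the Sdhd promoter holds the ETS and the oestrogen-related receptor letters on the opposite strand, and the Uqcrc1 promoter holds 2 overlapping NRF1 matches, 1 on each strand. The Cox6b2 and Atp5b promoters hold none of the 4 motifs in this window.
Ndufa9, chr6:126849095-126849394, minus strand: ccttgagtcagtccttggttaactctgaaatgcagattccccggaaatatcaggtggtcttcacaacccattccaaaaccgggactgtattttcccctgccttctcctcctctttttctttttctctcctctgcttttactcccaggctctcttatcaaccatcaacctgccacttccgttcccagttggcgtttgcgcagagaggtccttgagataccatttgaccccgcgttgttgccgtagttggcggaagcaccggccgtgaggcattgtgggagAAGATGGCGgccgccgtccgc
Sdhd, chr9:50603800-50604099, minus strand: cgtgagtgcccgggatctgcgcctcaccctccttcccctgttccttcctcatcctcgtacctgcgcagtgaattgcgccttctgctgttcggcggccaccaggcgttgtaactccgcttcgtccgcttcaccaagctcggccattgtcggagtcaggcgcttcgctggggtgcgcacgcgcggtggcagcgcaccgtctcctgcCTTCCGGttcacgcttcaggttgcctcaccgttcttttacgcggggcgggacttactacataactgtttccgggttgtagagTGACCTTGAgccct
Uqcrc1, chr9:108936398-108936697, plus strand: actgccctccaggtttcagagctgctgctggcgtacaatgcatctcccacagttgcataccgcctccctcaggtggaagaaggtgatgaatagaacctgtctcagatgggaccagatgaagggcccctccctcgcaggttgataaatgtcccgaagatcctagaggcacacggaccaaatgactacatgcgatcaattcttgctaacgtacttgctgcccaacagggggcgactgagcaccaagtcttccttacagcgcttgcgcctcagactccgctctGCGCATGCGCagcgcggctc
Cox6b2, chr7:4753045-4753344, minus strand: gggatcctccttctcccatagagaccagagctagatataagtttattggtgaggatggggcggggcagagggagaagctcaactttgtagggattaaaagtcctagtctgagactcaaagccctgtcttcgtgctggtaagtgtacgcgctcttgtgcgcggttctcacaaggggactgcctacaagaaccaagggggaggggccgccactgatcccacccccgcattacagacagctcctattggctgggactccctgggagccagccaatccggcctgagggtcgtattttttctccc
Atp5b, chr10:128083057-128083356, plus strand: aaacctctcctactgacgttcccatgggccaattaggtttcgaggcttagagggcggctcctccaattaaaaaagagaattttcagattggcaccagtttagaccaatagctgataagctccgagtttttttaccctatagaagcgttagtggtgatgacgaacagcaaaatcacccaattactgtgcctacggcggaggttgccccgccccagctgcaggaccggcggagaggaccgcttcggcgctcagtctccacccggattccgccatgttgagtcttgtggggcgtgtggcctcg

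The libraries held 21809788 to 51934498 reads counted on genes, and 3 reads, the most that a value of 0 allows, corresponded to 1.69 to 4.22 normalized counts. A principal component analysis put WT 2 and WT 3 (64.4 and 49.7) apart from the other 4 libraries along its first axis, with 47.4% of the variance, and WT 1 (-38.3) lay with the Stat3β TG libraries (-31.4, -16.3 and -28.2). Stat3 itself was read at 8058, 16112 and 10879 normalized counts in the WT libraries and at 11129, 9846 and 8034 in the transgenic ones. Its groups overlapped (log2 fold change -0.23 ± 0.26 SE, limma adjusted p = 0.771), and a gene-level count does not separate the splice forms, so it neither checks nor contradicts the labels. All 7 blast markers were detected at 10 or more, among them the leukocyte antigen Ptprc (10877 to 17294) and the MLL target genes Hoxa9 (7147 to 9288) and Meis1 (2586 to 4417). Spi1 was at 10985 to 13782, while Kit (1120 to 4119), Itgam (13735 to 45649) and Mpo (9999 to 61536) varied more. Stat3β TG 1 was the highest library for Ptprc and Itgam and the lowest for Mpo. All 5 markers of mature neutrophils and all 4 of eosinophils, basophils and mast cells were detected as well. Summed markers of mature neutrophils ranged from 15408 to 98222 in WT and from 61228 to 98257 in Stat3β TG, and those of eosinophils, basophils and mast cells from 10249 to 40083 and from 5144 to 9148. The latter separation was that of Prg2 (8375 to 36893 in WT, 4024 to 7055 in Stat3β TG), while Epx, Cpa3 and Mcpt8 overlapped between the groups. Summed monocyte and macrophage markers were at 41066 to 73739 over the 6 libraries. The stromal sum was 4443 and 4941 in WT 2 and WT 3 and 1995 to 2346 in the other 4 libraries, nearly all of it Pdgfrb. Summed megakaryocyte markers were at 670 to 2389, most of it Itga2b, and summed erythroid markers at 53.5 to 276. Summed NK cell markers were at 9.85 to 197, those of T cells, B cells and endothelium stayed under 50 in each library, and Cd3e was at 0. The part of these cell types in the results below was not tested. In bulk RNA, fewer cells of a type and less RNA per cell cannot be told apart.

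No respiratory chain or ATP synthase gene differed between Stat3β TG and WT beyond the spread of the libraries. Of the 81 members, 0 passed an adjusted p of 0.05 by limma on log2(normalized count + 1), as did 0 of all 12642 tested genes (0.0%). At an unadjusted p under 0.05 the count was also 0 members by limma, edgeR and DESeq2, beside 771 of all tested genes by limma (6.1%; 2.54% lower and 3.56% higher in Stat3β TG). DESeq2 called 17 genes at an adjusted p of 0.05 (0.134%), with 0 members among them, and edgeR called 0. The smallest unadjusted p of a member was 0.0848, for Ndufab1, and the smallest adjusted p was 0.668. The log2 fold change was below 0 in 52 members and above 0 in 29, that is 64.2% below 0 against 48.6% of all tested genes. The median member had a log2 fold change of -0.06, beside 0.01 for all tested genes.

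By complex, the median log2 fold change was -0.04 for complex I (22 of 35 below 0), -0.05 for complex II (3 of 4), -0.12 for complex III (7 of 9), -0.07 for complex IV (11 of 16) and -0.01 for complex V (9 of 17). Within complex I, the 7 core subunits that carry NADH oxidation and the iron-sulphur clusters had a median of -0.15 (6 of 7 below 0), and the 28 accessory subunits one of -0.03 (16 of 28). Within complex V, the 5 genes of the F1 head and central stalk had a median of -0.12 (4 of 5 below 0), and the 12 genes of the Fo part and peripheral stalk one of 0.01 (5 of 12). The medians of the 5 complexes lie within the spread of their library medians, whose pooled SD within groups was 0.174 to 0.196 on the log2 scale. This spread was not computed for the parts of complexes I and V.

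These signs rested largely on a single library. Stat3β TG 1 was the lowest of the 6 libraries for 67 of the 81 members (82.7%), against 16.1% of all tested genes, and it was the highest for 0 members. The count was 27 of 35 in complex I, 3 of 4 in complex II, 9 of 9 in complex III, 13 of 16 in complex IV and 15 of 17 in complex V. For the other 14 members the lowest library was WT 2 in 11, WT 1 in 2 (Ndufv3 and Cox6a2) and WT 3 in 1 (Cox6b2), and Stat3β TG 2 and Stat3β TG 3 were lowest in 0. The median deviation of the members from each gene's mean over the 6 libraries, on the log2 scale, was -0.03, 0.03 and 0.07 in WT. In Stat3β TG it was -0.31, 0.09 and 0.14. By this median over the 81 members, Stat3β TG 1 was below the other 5 libraries and Stat3β TG 2 and Stat3β TG 3 were above the 3 WT libraries. The place of the latter 2 differed between complexes: in complex III their medians (0.05 and 0.07) were below those of WT 2 and WT 3 (0.07 and 0.08). In complex II the median of Stat3β TG 2 (0.045) was below those of WT 2 and WT 3 (0.048 and 0.098). In complex V the median of Stat3β TG 2 (0.093) was below that of WT 3 (0.096). Both libraries were above the 3 WT libraries in complexes I and IV. The plot of deviations by complex shows Stat3β TG 1 lowest in each of the 5.

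**Figure D1:**
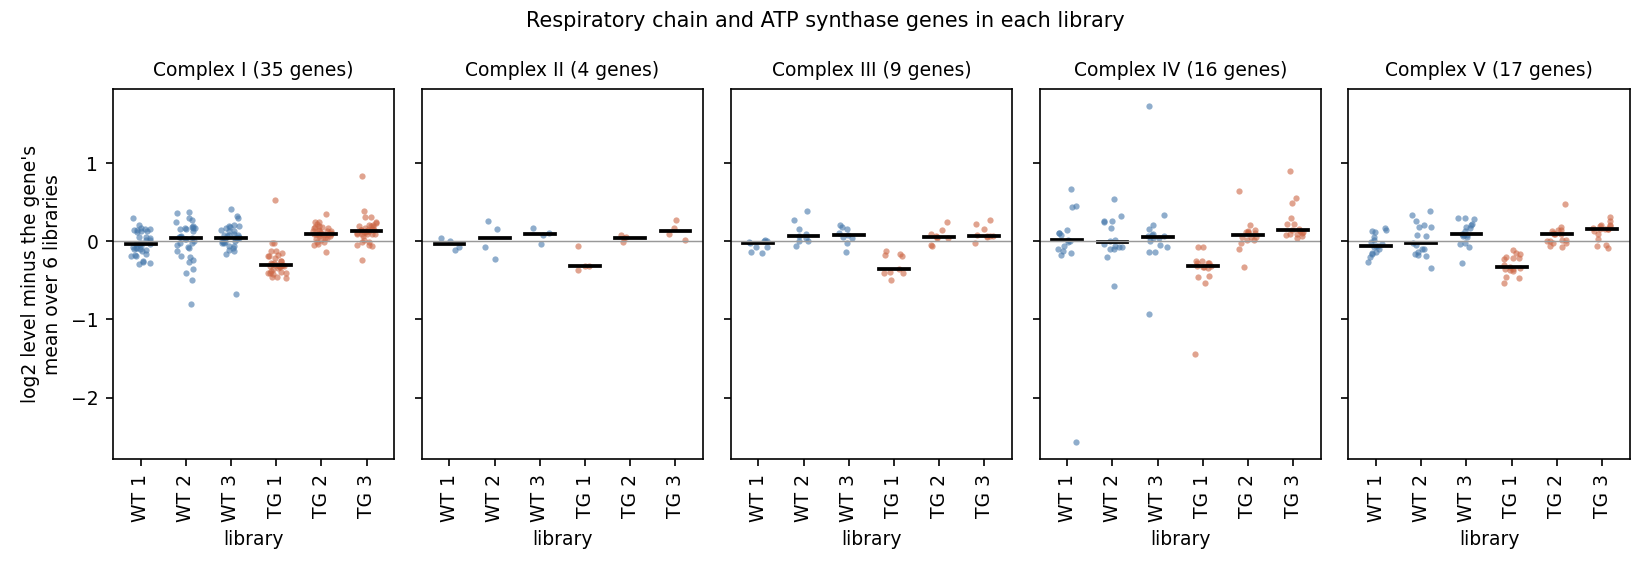
Each point is 1 member gene, and the vertical axis gives its log2 level in a library minus its mean over the 6 libraries, with a black bar at the median of each library. In each of the 5 complexes the median of Stat3β TG 1 (TG 1) lies below those of the other 5 libraries, at about -0.31 over all 81 members.

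The members' share of all counted reads was also lowest in Stat3β TG 1. In WT it was 0.875%, 0.975% and 0.944%, and in Stat3β TG 0.703%, 0.899% and 0.964%, with Stat3β TG 1 alone below the WT range and the other 2 Stat3β TG libraries within it. The number of members lowest in Stat3β TG 1 was 67 with TMM scaling (16.5% of all tested genes), 64 with quantile normalization (18.4%) and 69 with each library scaled to its total (21.5%). Stat3β TG 1 was among the more deeply sequenced libraries, with 46579680 counted reads. Its neutrophil marker sum of 98257 was close to that of WT 1 (98222), in which 2 members were lowest. Most of both sums was Camp (74674 in WT 1, 55281 in Stat3β TG 1). Stat3β TG 1 was the highest library for Ltf (18490), Ly6g (459), Mmp8 (4361) and Mmp9 (19666). In WT 1 these were at 14473, 456, 1551 and 7068. The part of sequencing depth and of neutrophil markers in the pattern was not tested.

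Without Stat3β TG 1 the balance of signs turned. Since this library was the lowest for most members, a rise of their fold changes without it was largely given in advance. Of the 81 members, 21 then had a log2 fold change below 0 and 60 above 0 (47.5% of all tested genes were below 0), and the median was 0.08, beside 0.02 for all tested genes. The medians of complexes I to V became 0.08, 0.10, 0.03, 0.04 and 0.13. Of the 7 core subunits of complex I, 4 stayed below 0, and of the 5 F1 genes, 3 did. With either set of libraries, 0 members were called.

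**Figure D2:**
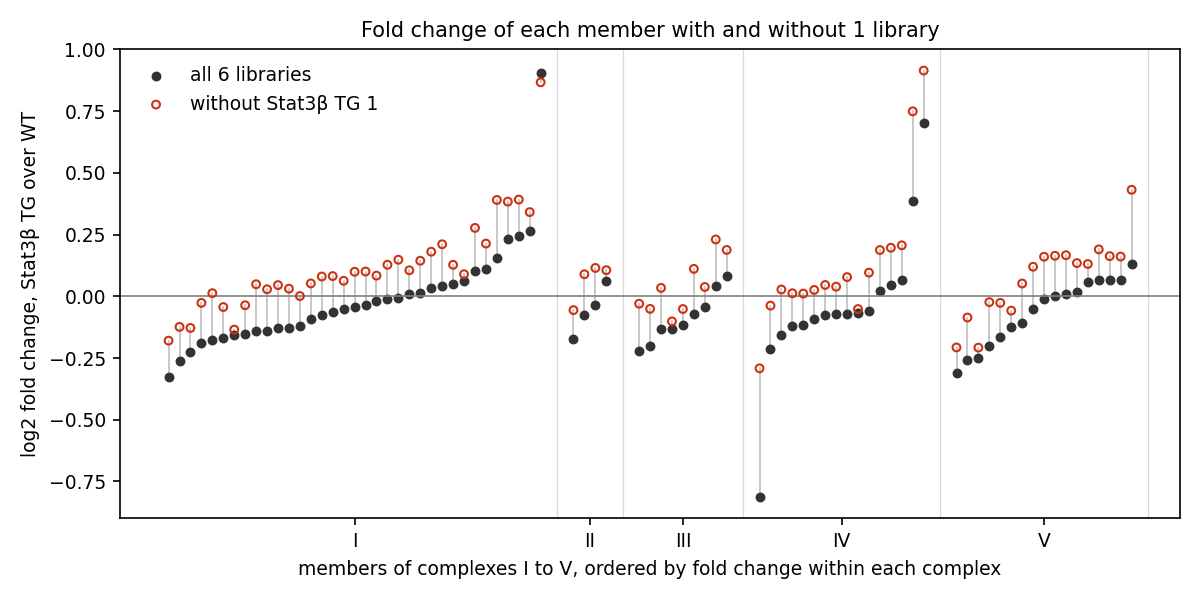
Each member is a column with its log2 fold change (Stat3β TG against WT) from all 6 libraries (filled) and without Stat3β TG 1 (open), grouped by complex. The number of members below 0 goes from 52 to 21 when this library is left out.

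The place of Stat3β TG 1 among the libraries varied with transcript length over all tested genes. Member transcripts were short, with a median of 763 bases against 2850 for tested genes (11967 with a length in GENCODE vM21). When tested genes were split by length into 4 groups of nearly equal size, 71 members fell in the group of 171 to 1824 bases. In that group Stat3β TG 1 was lowest for 61 of the 71 members and for 30.3% of all genes, and in the following groups of rising length for 18.1%, 10.2% and 5.88% of all genes. Among members it was lowest for 5 of 8 in the second group and for 1 of 2 in the third. The median deviation of Stat3β TG 1 over all genes was -0.12, -0.01, 0.05 and 0.12 from the shortest to the longest group. That of the members was -0.31 in the shortest group, -0.19 in the second and -0.21 in the third. Stat3β TG 2 and Stat3β TG 3 had the opposite slope, from 0.08 and 0.11 to -0.08 and -0.10. WT 2 had the same direction of slope as Stat3β TG 1, from -0.06 to 0.09, while its median over the members was 0.03. WT 1 and WT 3 stayed between -0.02 and 0.03 in the 4 groups. Whether length has a part in the members' low values in Stat3β TG 1 was not tested.

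**Figure D3:**
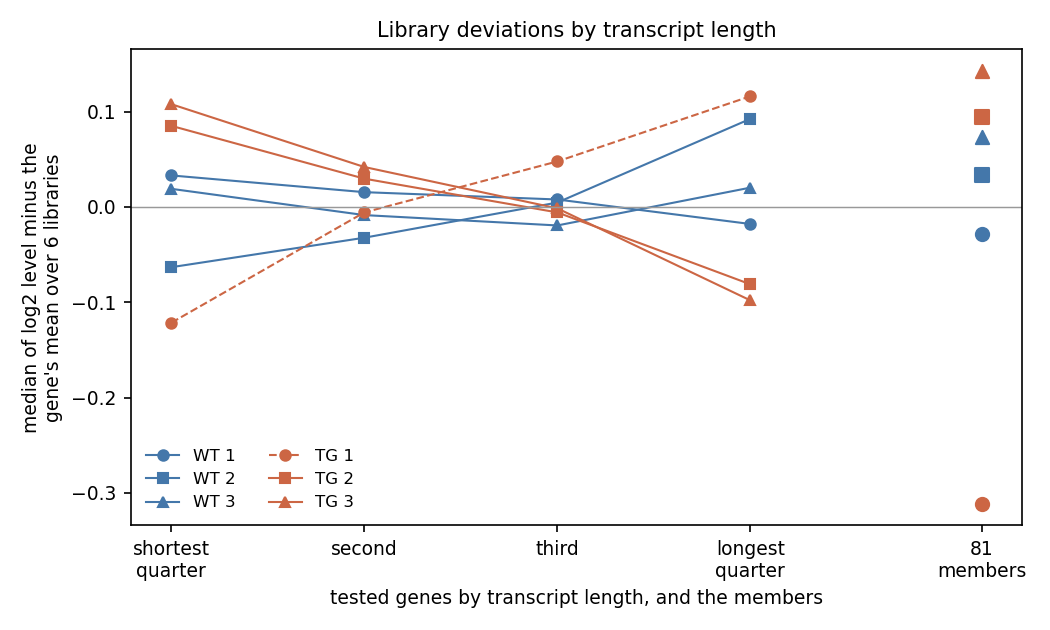
The 4 connected points of each library are the median deviations (log2 level minus the gene's mean over 6 libraries) of all tested genes in 4 groups of transcript length, and the unconnected points at the right are the medians of the 81 members. Stat3β TG 1 (TG 1, dashed) goes from -0.12 in the shortest to 0.12 in the longest group and is at -0.31 in the members.

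In complex I, the subunits that oxidise NADH and pass its electrons on showed no difference beyond the spread. Ndufv1, which binds NADH and the flavin, was read at 2729, 4026 and 4023 normalized counts in WT and at 2632, 3235 and 3235 in Stat3β TG. WT 2 and WT 3 were the highest libraries, but WT 1 was below 2 of the Stat3β TG libraries, so the groups overlapped (log2 fold change -0.23 ± 0.19 SE, limma adjusted p = 0.702). Ndufs1, the large iron-sulphur subunit, was at 2922, 2304 and 2512 in WT and at 2589, 2566 and 2907 in Stat3β TG. Here WT 1 was highest and WT 2 lowest, and the fold change was near 0 (0.06 ± 0.15 SE, limma adjusted p = 0.885).

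Among the accessory subunits, Ndufa10 had the lowest log2 fold change in complex I. It was at 2272, 3528 and 3657 in WT and at 1998, 2779 and 2667 in Stat3β TG, with WT 2 and WT 3 above the other 4 libraries (log2 fold change -0.33 ± 0.23 SE, limma adjusted p = 0.675). Ndufa9, whose promoter with its YY1 letters is printed above, had the opposite order: 2707, 1813 and 2149 in WT and at 2362, 2741 and 2815 in Stat3β TG. WT 2 and WT 3 were its lowest libraries and WT 1 lay among the Stat3β TG values (0.26 ± 0.18 SE, limma adjusted p = 0.675). Ndufa13, also known as GRIM-19, is a complex I subunit that binds STAT3, and it was at 3039, 2525 and 2588 in WT and at 2517, 2970 and 2947 in Stat3β TG. The groups covered nearly the same range (0.05 ± 0.15 SE, limma adjusted p = 0.909). Ndufab1, the mitochondrial acyl carrier protein, was at 44.6, 23.0 and 25.3 in WT and at 59.6, 40.6 and 74.2 in Stat3β TG (0.91 ± 0.46 SE, limma adjusted p = 0.668). Its groups overlapped through WT 1, and its values are uncertain because nearly all of its coding sequence also occurs in other genes.

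Succinate dehydrogenase, complex II, is shared with the citric acid cycle. Its flavoprotein Sdha was at 8622, 7141 and 8855 in WT and at 8032, 8647 and 8939 in Stat3β TG, with WT 2 as the lowest library (log2 fold change 0.06 ± 0.14 SE, limma adjusted p = 0.884). Its membrane anchor Sdhd was at 5550, 7176 and 6470 in WT and at 4810, 6164 and 6078 in Stat3β TG. WT 2 and WT 3 were highest and Stat3β TG 1 lowest, with WT 1 below the other 2 Stat3β TG libraries (-0.17 ± 0.17 SE, limma adjusted p = 0.732). Sdhb and Sdhc had log2 fold changes of -0.04 and -0.07.

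In complex III, which passes electrons from ubiquinol to cytochrome c, Stat3β TG 1 was the lowest library for each of the 9 genes. The haem protein Cyc1 was at 3601, 4046 and 4221 in WT and at 3320, 3629 and 3998 in Stat3β TG (log2 fold change -0.12 ± 0.14 SE, limma adjusted p = 0.784). The Rieske iron-sulphur protein Uqcrfs1 was at 2968, 4249 and 3381 in WT and at 2457, 3343 and 3403 in Stat3β TG (-0.20 ± 0.20 SE, limma adjusted p = 0.733). In both genes the groups overlapped, with WT 1 below at least 1 Stat3β TG library. Uqcrq, a small subunit, was at 2372, 2897 and 2548 in WT and at 1701, 2572 and 2515 in Stat3β TG (-0.22 ± 0.20 SE, limma adjusted p = 0.709). Uqcrc1, a large core protein of the matrix side, was at 7356, 7036 and 7879 in WT and at 6444, 7582 and 7642 in Stat3β TG, where only Stat3β TG 1 lay outside the WT range (-0.04 ± 0.14 SE, limma adjusted p = 0.920).

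Uqcrc2, the partner of Uqcrc1, was the only member whose groups did not overlap, and it is named here after its values were seen. It was at 5572, 5599 and 6441 in WT and at 5135, 5424 and 5494 in Stat3β TG. Each Stat3β TG library was below each WT library, but the gap between the closest libraries was small (log2 fold change -0.13 ± 0.13 SE, limma adjusted p = 0.742). That is 1 of 81 members lower without overlap and 0 higher, against 4.92% and 5.87% of all tested genes.

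In complex IV, Cox4i1, the most abundant of its subunits by mean count, was at 9900, 12363 and 11588 in WT and at 8659, 11850 and 12168 in Stat3β TG. Stat3β TG 1 was lowest and the other values mixed (log2 fold change -0.06 ± 0.18 SE, limma adjusted p = 0.908). Cox6b2, the isoform of Cox6b known from testis, had the largest log2 fold change among members with a mean of 50 or more. It was at 1157, 570 and 443 in WT and at 802, 1322 and 1185 in Stat3β TG. WT 2 and WT 3 were below the 3 Stat3β TG libraries, while WT 1 lay among them (0.70 ± 0.37 SE, limma adjusted p = 0.668). The commonly expressed partner Cox6b1 was at 4991, 4988 and 4783 in WT and at 3975, 5415 and 5796 in Stat3β TG, so its WT libraries were close to each other while its Stat3β TG libraries lay on both sides of them. Cox4i2, the minor partner of Cox4i1, was close to the detection limit at 20.7, 19.0 and 12.7 in WT and at 4.02, 9.85 and 19.1 in Stat3β TG (-0.81 ± 0.66 SE, limma adjusted p = 0.695). Stat3β TG 3 lay within the WT range, and without Stat3β TG 1 the log2 fold change was -0.29.

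In complex V, the genes of the F1 head had the highest counts of all members. Atp5a1, the alpha subunit, was at 25913, 39145 and 36340 normalized counts in WT and at 23319, 28613 and 29045 in Stat3β TG. WT 2 and WT 3 were above the other 4 libraries and WT 1 lay between Stat3β TG 1 and Stat3β TG 2 (log2 fold change -0.31 ± 0.20 SE, limma adjusted p = 0.675). Atp5b, the catalytic beta subunit, was at 28162, 35743 and 38147 in WT and at 26749, 29309 and 29108 in Stat3β TG, with the same order of groups of libraries (-0.25 ± 0.17 SE, limma adjusted p = 0.675). Together these 2 genes took 0.185%, 0.254% and 0.242% of counted reads in WT, against 0.161%, 0.190% and 0.199% in Stat3β TG. The remaining F1 genes had log2 fold changes of -0.12 (Atp5c1, the gamma subunit), 0.02 (Atp5d, delta) and -0.05 (Atp5e, epsilon).

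**Figure D4:**
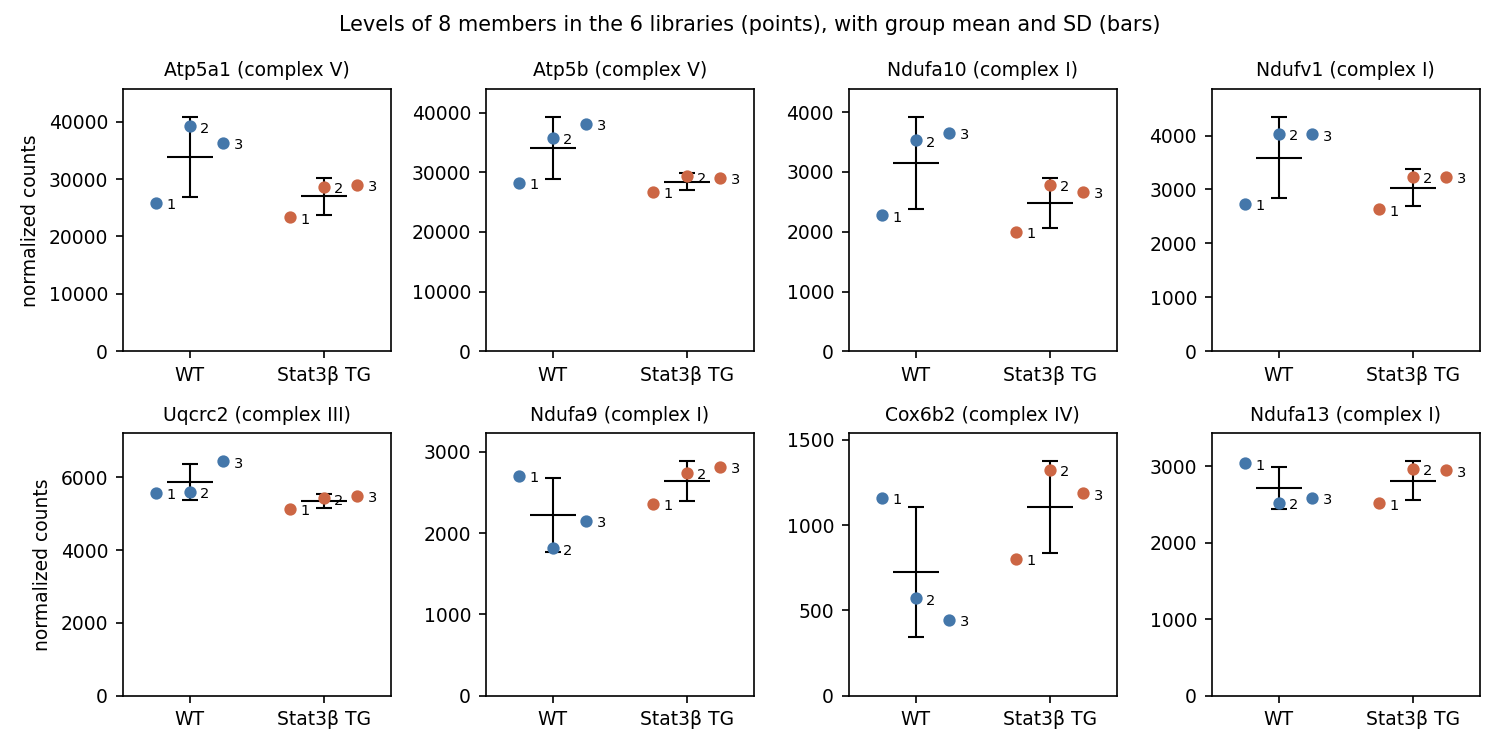
Normalized counts of 8 members in the 3 WT and 3 Stat3β TG libraries (points, numbered by replicate), with the group mean as a horizontal line and the SD as error bars. For Atp5a1, Atp5b, Ndufa10 and Ndufv1 the libraries WT 2 and WT 3 lie above the other 4, for Ndufa9 and Cox6b2 they lie below them, and Uqcrc2 has no overlap of groups.

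The split of WT 2 and WT 3 from the other 4 libraries, seen on the first principal component, was present in part of the members. In 15 members (18.5%, against 20.5% of all tested genes) both were above the other 4 libraries, and in 5 members (6.17%, against 21.9%) both were below. The 15 were Ndufa7, Ndufa10, Ndufb5, Ndufs3, Ndufs8, Ndufv1, Ndufv3, Sdhd, Cyc1, Uqcrc2, Atp5a1, Atp5b, Atp5c1, Atp5mpl and Atp5o, so 3 of the 5 F1 genes were among them. The 5 were Ndufa9, Ndufab1, Ndufs1, Cox6b2 and Cox7a1. Without WT 1, 7 members had an unadjusted limma p under 0.05 (Ndufa10, Ndufv1, Ndufa9, Ndufab1, Cox6b2, Atp5a1 and Atp5b), against 27.0% of all tested genes, and 0 members passed the adjusted threshold, against 2.74%. In that fit the log2 fold change was -0.49 for Atp5a1, -0.38 for Atp5b and 1.10 for Cox6b2, whose limma adjusted p of 0.0615 was the nearest to the threshold among these 7.

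Levels between genes were compared as mean normalized counts per kilobase of transcript. The highest were Atp5b (16285 per kilobase), Cox4i1 (14686), Atp5a1 (12301), Atp5e (9346) and Atp5g3 (8456). For subunits with isoforms, 1 isoform dominated. Cox4i1 was read at 14686 per kilobase beside 19.5 for Cox4i2, an isoform known from lung and from low oxygen. Cox6a1 was at 6763 beside 37.5 for Cox6a2, and Cox7a2 at 4789 beside 92.2 for Cox7a1, both of these minor forms being known from heart and skeletal muscle. Cox6b1 was at 8077 beside 1652 for Cox6b2, the minor isoform with the highest level of these. Cox8a was at 6809 per kilobase and Ndufa4 at 6022, while Cox8b, Cox8c and Ndufa4l2 did not pass the level rule.

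Low counts were uncertain for several members. Many subunits have processed copies elsewhere in the genome, and reads that map to more than 1 place may be dropped or split in counting, which is not described in the sources used here. The coding sequence of each member was cut into all windows of 50 bases and searched in the transcripts of all other genes (GENCODE vM21, GRCm38). In 44 of the 81 members 0 windows were shared, in 30 some were, and in 7 at least 99% were: Ndufab1, Ndufb4, Cox7c, Atp5g1, Atp5g2, Atp5l and Atp5md. Those 7 had mean normalized counts of 16.0 to 156, while 71 of the other 74 members had 400 or more. The 3 exceptions were the minor isoforms Cox4i2, Cox6a2 and Cox7a1, with 0% shared. Ndufs5, listed at 0 in all 6 libraries, shared 72.5% of its windows with BC002163. The first 50 coding bases of Cox7c, a small subunit of complex IV, illustrate such a sequence, since the gene model Gm12338 holds the same letters.
Cox7c, coding bases 1 to 50: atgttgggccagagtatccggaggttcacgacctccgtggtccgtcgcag

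**Figure D5:**
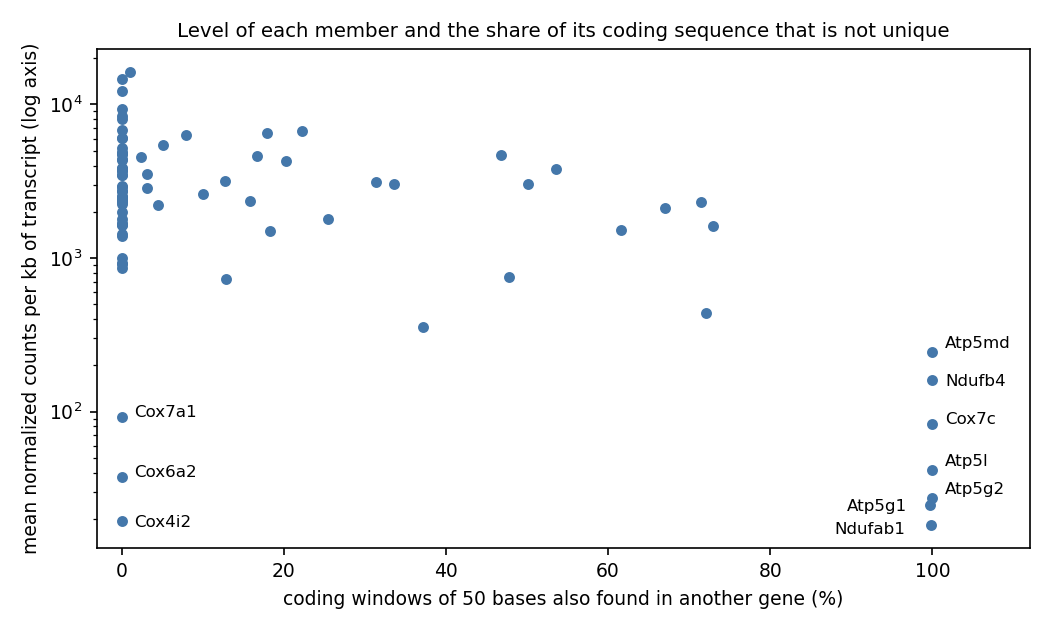
Each point is 1 of the 81 members, with the percentage of its 50-base coding windows that also occur in another gene on the horizontal axis and its mean normalized count per kilobase on a log vertical axis. The 7 members at 99% or more lie between 18.2 and 244 per kilobase, and the other 3 low members are Cox4i2, Cox6a2 and Cox7a1.

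The values of these 7 members are uncertain for this reason, which also applies to the c-ring genes of ATP synthase. Atp5g1, Atp5g2 and Atp5g3 encode the same mature c subunit, and only Atp5g3, with 0% of windows shared, was read at a high level (8456 per kilobase, against 24.7 and 27.4 for Atp5g1 and Atp5g2). Atp5l, the g subunit, had windows in 13 other genes. With the 67 members that shared under 50% of windows, Stat3β TG 1 was lowest for 55 (82.1%), and 45 had a log2 fold change below 0 (67.2%). These 67 make up most of the members, so figures close to those of the full set were largely given in advance. In the 7 members with at least 99% of windows shared, Stat3β TG 1 was lowest for 6 (85.7%). Of those 7, 3 had a log2 fold change below 0 and 4 above. Whether shared sequence has a part in the pattern across libraries was not tested.

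Genes that assemble, feed and regulate the chain were read from 6 lists, and 0 of their tested genes passed the adjusted threshold. Assembly factors of complex I numbered 15, with 7 below and 8 above 0 and a median log2 fold change of 0.05. Their smallest p-values belonged to Timmdc1, a membrane-arm assembly factor, and to Ndufaf3 (log2 fold change 0.24 ± 0.19 SE, limma adjusted p = 0.689; 982, 717 and 737 in WT, 880, 1064 and 921 in Stat3β TG). Timmdc1 was at 738, 253 and 341 in WT and at 570, 595 and 701 in Stat3β TG, with WT 2 and WT 3 as its low libraries (0.63 ± 0.38 SE, limma adjusted p = 0.668). Assembly factors of complexes II to V numbered 31, with 12 below and 19 above 0 and a median of 0.14. Their groups did not overlap in 4 genes lower and 3 higher in Stat3β TG, against 4.92% and 5.87% of all tested genes. An unadjusted limma p under 0.05 was found for 1 gene, lower in Stat3β TG, against 2.54% of all tested genes. That gene was Cox10, which makes the haem precursor for cytochrome c oxidase, at 923, 1243 and 1380 in WT and at 778, 781 and 822 in Stat3β TG. Its groups did not overlap and the WT libraries varied more than the Stat3β TG libraries (-0.55 ± 0.19 SE, limma adjusted p = 0.668). Surf1, an assembly factor of the same complex, had the opposite direction without overlap, at 1173, 1010 and 946 in WT and at 1188, 1432 and 1484 in Stat3β TG (0.39 ± 0.17 SE, limma adjusted p = 0.668).

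Electron carriers and the genes of ubiquinone supply numbered 19, with 6 below and 13 above 0 and a median log2 fold change of 0.08. The smallest p-values were those of the coenzyme Q genes Coq10a (723, 447 and 497 in WT, 634, 810 and 801 in Stat3β TG) and Coq9 (1974, 2255 and 3113, against 1841, 2071 and 1705). Their log2 fold changes were 0.45 ± 0.24 SE and -0.36 ± 0.20 SE, and the groups overlapped in both. The citric acid cycle had 15 tested genes, with 11 below and 4 above 0 and a median of -0.07. Groups did not overlap in 2 genes lower and 0 higher in Stat3β TG, against 4.92% and 5.87% of all tested genes. At an unadjusted limma p under 0.05 there was 1 gene, higher in Stat3β TG, against 3.56% of all tested genes. This was Ogdh, a subunit of the oxoglutarate dehydrogenase complex, at 8472, 4401 and 5275 in WT and at 9060, 7788 and 9082 in Stat3β TG (0.57 ± 0.24 SE, limma adjusted p = 0.668). WT 2 and WT 3 were its low libraries and WT 1 lay among the Stat3β TG values, and the log2 fold change was 0.84, past the adjusted threshold, when WT 1 was left out. Sucla2, a subunit of succinyl-CoA ligase, was at 2357, 2660 and 2548 in WT and at 1844, 2176 and 2269 in Stat3β TG without overlap (-0.27 ± 0.15 SE, limma adjusted p = 0.668).

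Genes for the exchange of ATP, ADP and phosphate across the inner membrane numbered 7, with 5 below and 2 above 0 and a median log2 fold change of -0.05. Its smallest p-values were those of the adenine nucleotide carriers Slc25a5 (5550, 6820 and 7910 in WT, 5572, 6320 and 5765 in Stat3β TG) and Slc25a4 (1884, 2381 and 2094, against 1140, 1768 and 2611). Their log2 fold changes were -0.19 ± 0.17 SE and -0.28 ± 0.29 SE, with overlap in both, and that of Slc25a4 was 0.03 without Stat3β TG 1. Regulators of respiratory gene expression numbered 17, with 11 below and 6 above 0 and a median of -0.09. Among them 2 were lower and 0 higher in Stat3β TG without overlap, against 4.92% and 5.87% of all tested genes. Gabpb1 and Gabpa, the subunits of the factor that binds the ETS letters given above, had the smallest p-values of this list. Gabpb1 was at 2432, 2142 and 2654 in WT and at 1923, 2030 and 1814 in Stat3β TG, without overlap (-0.32 ± 0.15 SE, limma adjusted p = 0.668). Gabpa was at 3216, 4425 and 3640 in WT and at 3409, 2813 and 3077 in Stat3β TG, with overlap (-0.27 ± 0.17 SE, limma adjusted p = 0.670). Stat3β TG 1 was the lowest library for 7 of 15 complex I assembly factors, 8 of 31 other assembly factors, 3 of 19 carrier and ubiquinone genes, 5 of 15 citric acid cycle genes, 3 of 7 exchange genes and 5 of 17 regulators, beside 67 of the 81 subunit genes.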

How the data were processed

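RNA of sorted MLL-AF9 blasts was analysed in 3 WT and 3 Stat3β TG libraries. The submitters' processing notes name STAR, FastQC and DESeq2 and the build GRCm38 (mm10). The gene counter, strand setting, annotation and versions remain not given in the sources used here. Values in the deposited table are normalized counts (treated as signal), whose steps are those of gene counts divided by 1 factor per library. Whole reads were recovered from the steps between values: 100% of 146724 values came out whole within 0.001.

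Entrez IDs were matched to symbols for 24376 of 24454. Genes with a value of 10 or more in at least 3 of 6 libraries (12642) were fitted with limma 3.58.1 in R 4.3.3 (trend and robust options) on log2(normalized count + 1), which understates changes of low genes, with two-sided p-values and Benjamini-Hochberg adjustment over all tested genes. Alternatives were edgeR 4.0.16 and DESeq2 1.42.0 on recovered reads, TMM and quantile scaling, pseudocounts of 0.5 and 5, no filter and a filter of 50, a replicate block, and leaving out libraries. The fits were tested on simulated data.

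The members and lists were chosen with earlier results of these data known. Values in every library were given by rule for, in each complex, the 2 members with the smallest p and the one with the highest mean, for catalytic subunits, for Ndufa13, for the 2 largest fold changes in each direction among members with a mean of 50 or more, and for 2 genes per list; isoform sets were given by level. Of the genes this rule gives, 1 is not reported here. Transcript lengths are medians over principal coding transcripts of GENCODE vM21. Intervals and floors cover counting error only.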

Additional observations from a re-analysis of the deposited data

How the results depend on the processing

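The count of 0 called members held in each alternative run. The count of called genes over all tested was 17 with DESeq2, 0 to 346 when single libraries were left out (346 without WT 1 and 5 without WT 2), 740 with WT 1 and WT 3 left out and 9 with WT 2 and WT 3 left out. The last 2 fits rest on 1 WT library, assumed to vary like the Stat3β TG libraries. Members with an unadjusted p under 0.05 numbered 0 to 7 when single libraries were left out, 3 with WT 1 and WT 3 left out and 1 with WT 2 and WT 3 left out. Members below 0 numbered 21 (without Stat3β TG 1) to 65, and the members' median log2 fold change went from -0.14 to 0.08. Stat3 went from -0.47 to 0.034 when single libraries were left out, the latter without WT 2, and was 0.25 with WT 2 and WT 3 left out.

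Scaling, pseudocount, filter and test turned no direction among the 30 genes with a value in every library. With WT 2 and WT 3 left out, so that WT 1 stood alone, the log2 fold change turned to -0.041 for Ndufa9, 0.025 for Sdhd, -0.015 for Sdha, 0.032 for Uqcrfs1, -0.10 for Cox6b2, 0.12 for Cox4i1, 0.052 for Atp5a1, 0.010 for Atp5b, 0.15 for Ndufv1, -0.12 for Ndufs1, 0.015 for Cyc1, -0.12 for Ndufa13, 0.11 for Ndufa10, -0.25 for Timmdc1, -0.044 for Ndufaf3 and 0.083 for Slc25a5. Over the fits that left out single libraries, the sign turned for 6 genes. The range was -0.035 to 0.12 for Sdha, -0.085 to 0.038 for Uqcrc1, -0.15 to 0.096 for Cox4i1, -0.014 to 0.16 for Ndufs1, -0.00049 to 0.13 for Ndufa13 and -0.57 to 0.026 for Slc25a4. Sdha, Cox4i1, Ndufs1 and Ndufa13 turned without WT 2 (Cox4i1 to 0.0077), Uqcrc1, Cox4i1 and Slc25a4 without Stat3β TG 1, and Uqcrc1 also without WT 3 (0.0013) and with WT 1 and WT 3 left out (0.033). The cause was not tested.

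Same-numbered libraries had correlations of their deviations of 0.14, 0.10 and -0.11. WT 1 and WT 2 correlated best with the Stat3β TG library of the same number, and WT 3 with Stat3β TG 2 (0.14). Correlations this weak do not decide whether the numbers pair the libraries, and the main fit used no pairing. With a replicate block, 0 genes and 0 members were called, and 52 members were below 0. The 7 members with shared sequence and the isoforms Cox4i2, Cox6a2 and Cox7a1 rest on few reads.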

Other observations

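Outside the genes described by rule, the largest log2 fold change among the assembly factors was that of Coa4, a small factor for cytochrome c oxidase, chosen after its values were seen. It was at 600, 195 and 173 normalized counts in WT and at 541, 581 and 558 in Stat3β TG (log2 fold change 1.04 ± 0.45 SE, limma adjusted p = 0.668). WT 1 lay above the 3 Stat3β TG libraries and WT 2 and WT 3 lay below them, the order also seen for Timmdc1.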
